A study of Mus musculus with 6 samples.

Results

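The Rab small GTPases are a family of membrane switches, and 59 of them were measured in adult mouse forebrain cortex among the 19938 genes of the array table. They were taken by name: every row with 1 gene symbol made of Rab, a number and at most a short suffix, which gave 62 rows for the 59 genes, with the brightest probe set kept for each gene. None of the 59 passed the threshold, a limma p-value under 0.05 after adjustment over all genes, in the contrast of labelled Dicer KO with control animals. The 3 nearest to it were Rab26, lower in the labelled KO arrays, and Rab3d and Rab9b, higher there.

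The 3 labelled KO animals were CamKII-Cre/+;Dicer flox/flox, so that Cre recombinase driven by a CamKII promoter, active in excitatory forebrain neurons, was to delete Dicer, the enzyme that cuts microRNA precursors. The 3 littermate controls had 1 of 2 genotypes: CamKII-Cre/+;Dicer flox/+, with an intact allele, or, with no Cre transgene, +/+;Dicer flox/flox. Which control animal had which genotype is not labelled. All 6 animals were adult C57BL/6 mice, and all carried a floxed Dicer allele. Other cortical cells keep Dicer in this model, and total RNA of the tissue mixes them with the neurons. In such tissue fewer cells of a type and less RNA per cell cannot be told apart.

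A Rab protein is active and membrane-bound when it holds GTP and inactive when it holds GDP. Guanine nucleotide exchange factors (GEFs) switch it on, GTPase-activating proteins (GAPs) switch it off, a prenyl anchor holds it in the membrane, and effectors that bind the active form move, tether or fuse the vesicle. Each Rab marks particular membranes, and in neurons the family runs the synaptic vesicle cycle, the sorting and recycling of receptors through endosomes, and delivery to lysosomes.

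Values are log2 expression from RMA, which corrects for background and normalizes across arrays, and limma fits each gene with a spread shrunk towards that of all genes. The median log2 value of an array lay between 7.13 and 7.22. Dicer1 itself read 9.58, 9.68 and 9.46 in the labelled KO arrays, against 9.17, 9.21 and 9.18 in the controls, a difference of 0.39 ± 0.087 on the log2 scale (SE; limma adjusted p = 0.102). The value is not lower in the labelled KO arrays, and which exons its probe set reads was not examined, so it does not check the labels; directions below are those of the labelled arrays. Some arrays stood apart in other cells' transcripts. The 8 measured of 8 astrocyte markers had a mean level of 10.97, 10.79 and 11.35 in labelled KO arrays 1 to 3, against 10.74 to 10.91 in the controls. Of these markers 6 were above 0 and 2 below. Gfap was at 1.07, Gja1 at 0.44 and Slc1a3 at 0.29, and the others lay between -0.21 (Aldh1l1) and 0.099 (Aqp4). The 8 of 8 olfactory bulb markers had a mean level of 6.79 to 6.84 in the labelled KO arrays, against 8.30 in control array 1 and 6.70 and 6.82 in control arrays 2 and 3. By Y-linked and Xist transcripts, labelled KO arrays 1 and 3 and control array 2 came from males and the other arrays from females.

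The Rab genes lay on both sides of 0. Their median log2 change, labelled KO minus control, was -0.0013, beside -0.0092 over all genes, with 29 of 59 Rab genes above 0, where 47.3% of all genes were, and 30 below. At an adjusted p under 0.05, limma called 0 of 59 Rab genes, where it called 0.281% of all genes. At an adjusted p under 0.1 there were 3 of 59, 5.08% (Rab26, Rab3d and Rab9b), where all genes gave 1.6%. At an unadjusted p under 0.05 there were 7 of 59, 11.9%, where all genes gave 14.4%: 3 were higher (Rab3d, Rab9b and Rab30), where 7.01% of all genes were, and 4 lower (Rab26, Rab27b, Rab3c and Rab40b), where 7.39% were. Below, "past 0.05 without adjustment" refers to this unadjusted p. In 9 of 59 Rab genes the 2 groups did not overlap, where this held for 20.3% of all genes: 4 (Rab3d, Rab9b, Rab30 and Rab43) lay above all controls, beside 9.3% of all genes, and 5 (Rab26, Rab40b, Rab19, Rab14 and Rab8a) below, beside 11% of all genes.

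The intervals also say how large a change remains possible. For 52 of 59 Rab genes the 95% interval of the difference lay wholly within a 1.5-fold change either way (0.58 on the log2 scale), as it did for 89.5% of all genes. The 7 genes whose interval reached further were Rab26, Rab3d, Rab9b, Rab27b, Rab3c, Rab37 and Rab7b. Leaving out 1 array in turn moved the difference of 50 of the 59 Rab genes by more than 1.5 times in at least 1 case, and turned the sign of 17. The 9 that moved less were Rab26, Rab3d, Rab9b, Rab30, Rab28, Rab43, Rab24, Rab14 and Rab6a. RMA values compress differences of dim transcripts, and 16 of the 59 Rab genes had a mean level below the median gene's 7.65.

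**Figure D1:**
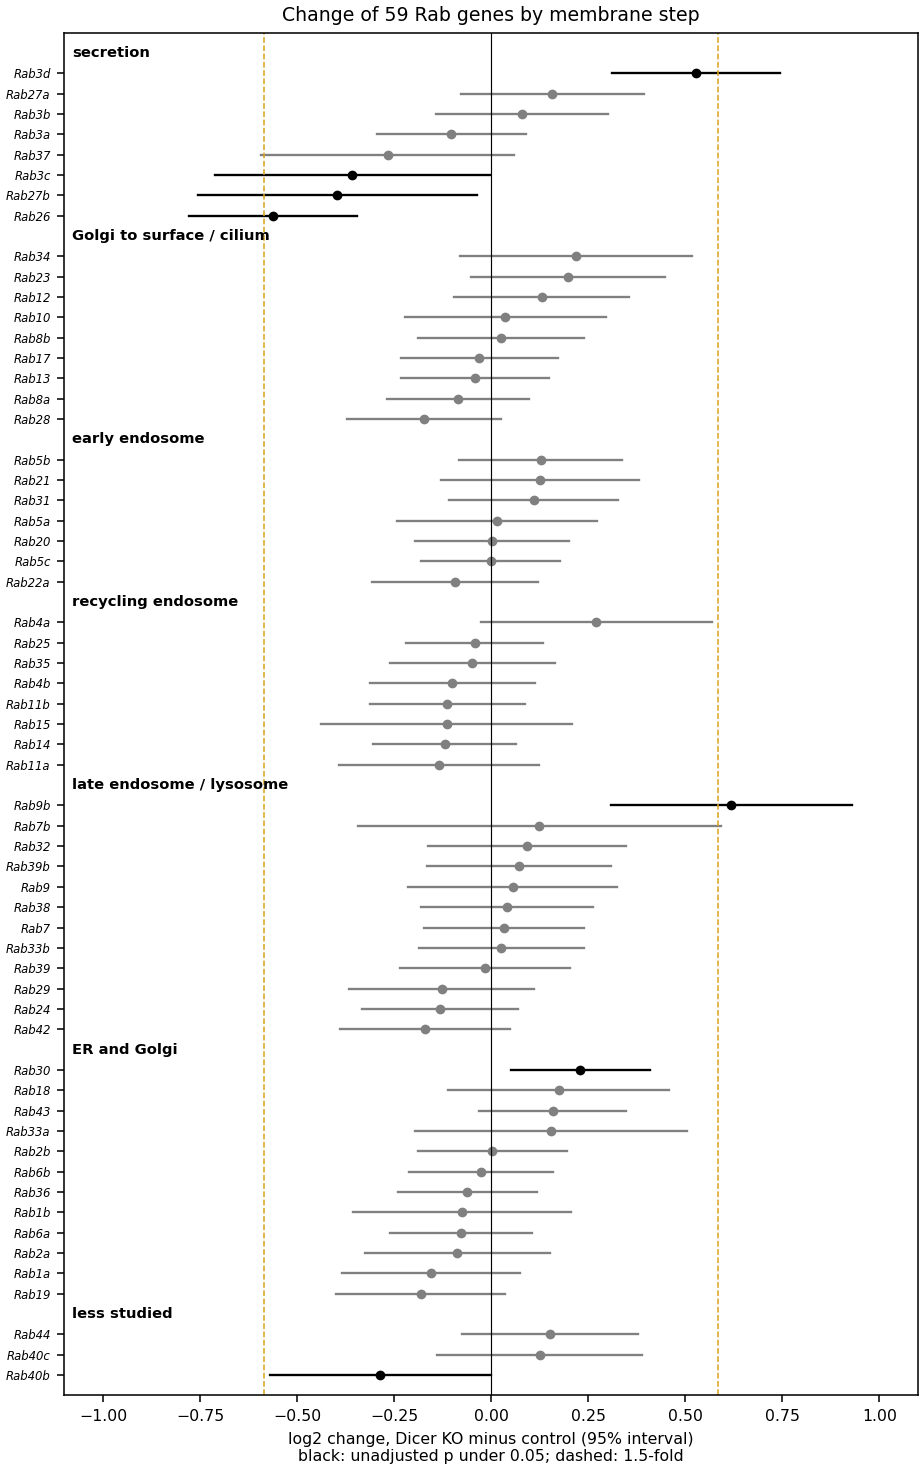
Log2 change (labelled Dicer KO minus control, x axis) of the 59 Rab genes with 95% intervals from limma, grouped down the page by the membrane step each is best known for; black marks an unadjusted p under 0.05 and dashed lines a 1.5-fold change. Most intervals cross 0, and the genes farthest from it are Rab26 at -0.56, Rab3d at 0.53 and Rab9b at 0.62.

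Rabs of regulated secretion held 4 of the 7 genes past 0.05 without adjustment, out of 8 measured, or 50% of the group, where all genes gave 14.4%. These were 1 higher, Rab3d, and 3 lower, Rab26, Rab27b and Rab3c. This group loads and docks synaptic vesicles and secretory granules, and its median change was -0.18, with 3 members above 0 and 5 below. The groups were chosen with earlier results of these data known, and the 50% share was not tested. Excitatory neuron markers (11 of 12 measured) had a mean level of 9.93 in each of the 3 labelled KO arrays, against 9.99 to 10.08 in the controls. Of these markers 4 were above 0 and 7 below. The largest falls were those of Nrgn, neurogranin, at -0.60 (limma adjusted p = 0.0413), and Neurod6, at -0.45. The other markers lay between -0.19 (Emx1) and 0.15 (Rorb). Among them Fezf2 and Foxp2 were each at 0.10, and Slc17a7, Tbr1 and Neurod2 at -0.098, -0.011 and 0.015. The part of these markers in the values of the secretory Rabs was not tested.

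Rab26, found on secretory granules and on synaptic vesicles bound for autophagy, read 8.48, 8.41 and 8.31 in the labelled KO arrays, against 8.89, 8.90 and 9.10 in the controls. Every labelled KO array lay below every control array. The means were 8.40 ± 0.089 in labelled KO arrays and 8.96 ± 0.12 in controls (SD, n = 3 each), a difference of -0.56 ± 0.096 (SE), 1.48-fold lower, with a limma adjusted p of 0.0548 over all genes. This was the smallest p of the family. When the dimmer genes were left out, limma called 178 of 9969 genes, against 56 of 19938 in the fit reported. Rab26 passed there (adjusted p = 0.0339), and over all alternatives tried its adjusted p lay between 0.0339 and 0.263.

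The 4 Rab3 genes, which encode the vesicle GTPases that bind the active zone, did not share a direction. Rab3d, best known from granules of exocrine and mast cells, read 7.54, 7.77 and 7.70 in the labelled KO arrays, against 7.20, 7.18 and 7.04 in the controls. The 2 groups were apart, by 0.53 ± 0.095 (SE), 1.44-fold (adjusted p = 0.0669). Rab3c, a synaptic vesicle Rab, read 10.62, 10.27 and 10.90 in the labelled KO arrays, against 10.77, 11.03 and 11.06 in the controls, so that labelled KO array 3 overlapped control array 1. Its difference of -0.36 ± 0.16 (SE; adjusted p = 0.343) was -0.19 without labelled KO array 2. Rab3a, the main Rab of synaptic vesicles in brain, read 10.05, 10.04 and 9.92 in the labelled KO arrays, against 10.18, 10.10 and 10.04 in the controls, at -0.10 with a 95% interval from -0.30 to 0.091, and leaving out labelled KO array 3 gave -0.062, leaving out control array 1 -0.067. Rab3b was at 0.079, with an interval from -0.14 to 0.30. Whether the changes of Rab3d and Rab3c differ from each other was not tested.

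The 2 Rab27 genes, which dock secretory granules and exosome-bearing endosomes, also stood on different sides of 0. Rab27b read 7.94, 7.98 and 8.32 in the labelled KO arrays, against 8.19, 8.47 and 8.78 in the controls, so that the groups overlapped. The difference was -0.40 ± 0.16 (SE; adjusted p = 0.302), and -0.25 without control array 3. Rab27a was at 0.16 ± 0.10 (SE; adjusted p = 0.544), and at 0.063 without labelled KO array 3. Rab37, another granule Rab, read 6.88, 6.94 and 7.09 in the labelled KO arrays, against 7.55, 6.96 and 7.21 in the controls, at -0.27 ± 0.14 (SE; adjusted p = 0.453). Its highest value was in control array 1, the array with the high olfactory bulb markers, and without that array the difference was -0.11. The part of those markers in the Rab37 values was not tested.

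**Figure D2:**
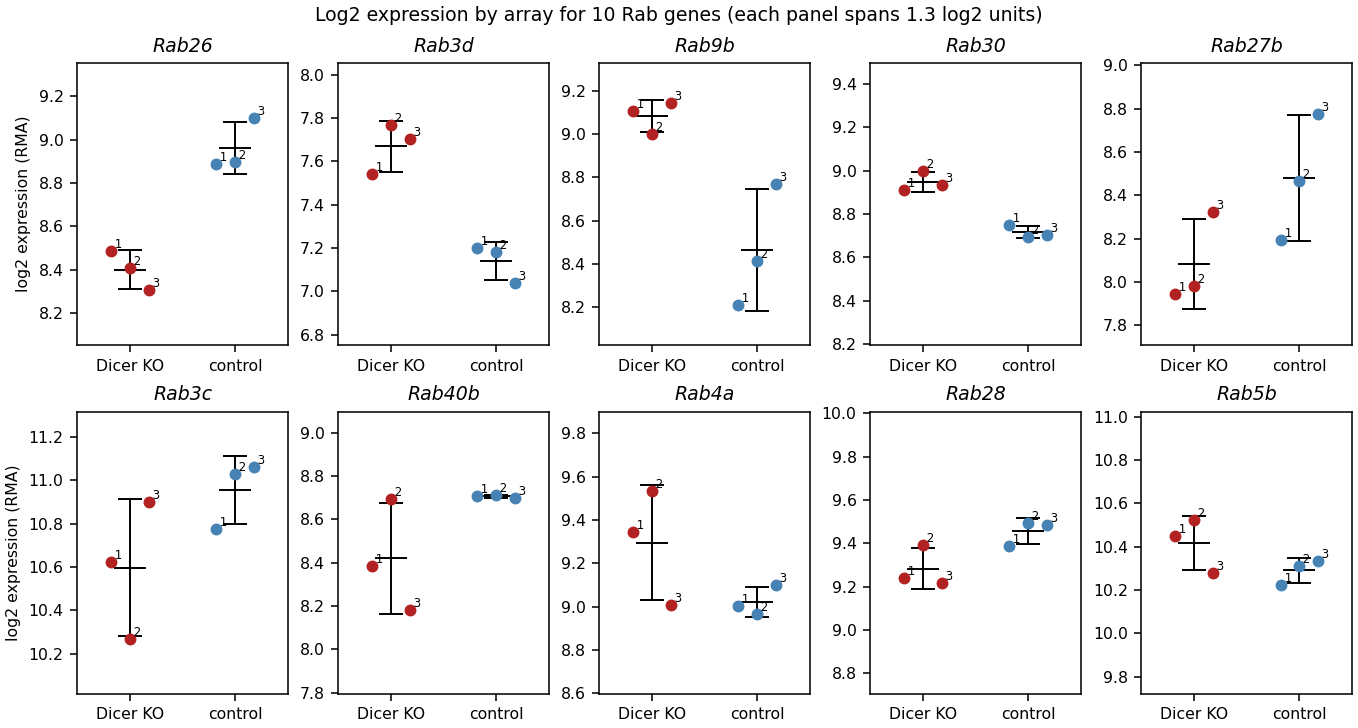
Log2 expression (y axis, each panel spanning 1.3 log2 units) of 10 Rab genes by group, with array numbers beside the points and the mean and SD of 3 arrays as bars; labelled Dicer KO is on the left and control on the right. Rab26, Rab3d and Rab9b are separated between groups, while Rab27b, Rab3c and Rab4a overlap.

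Of 12 Rabs of late endosomes, lysosomes, autophagy and lysosome-related organelles, 1 was past 0.05 without adjustment (8.33%, where all genes gave 14.4%). The group's median change was 0.037. Rab9b, a close relative of Rab9, which returns receptors from late endosomes to the Golgi, had the largest difference of the family. It read 9.11, 9.00 and 9.14 in the labelled KO arrays, against 8.21, 8.42 and 8.77 in the controls. The labelled KO arrays lay close together and above all controls, which were spread: the means were 9.08 ± 0.075 in labelled KO arrays and 8.46 ± 0.28 in controls (SD, n = 3 each). The difference was 0.62 ± 0.14 (SE), 1.54-fold, with an adjusted p of 0.0951. Rab9b is X-linked. In a model that also holds sex, which called 0 of all genes, its difference was 0.61 (adjusted p = 0.207). Leaving out 1 array moved it between 0.49, without control array 1, and 0.77, without control array 3. Rab9 itself was at 0.056, with an interval from -0.21 to 0.32.

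Rab7, the Rab of late endosomes and lysosomes, read 10.80, 10.99 and 10.84 in the labelled KO arrays, against 10.75, 10.88 and 10.90 in the controls. The groups overlapped, and the difference was 0.034 with an interval from -0.17 to 0.24. Rab7b, studied in macrophages, read 6.50, 6.21 and 7.00 in the labelled KO arrays, against 6.25, 6.30 and 6.78 in the controls, the widest spread within groups of the 59 genes, and the difference was 0.12 with overlapping groups. Its high arrays were number 3 of each group, as for the microglial receptor gene Csf1r, at 9.50, 9.27 and 10.30 in the labelled KO arrays, against 9.43, 9.55 and 9.85 in the controls. The 7 measured of 8 microglia markers had a mean level of 7.96 to 8.67 in the labelled KO arrays, against 8.14 to 8.51 in the controls, and their part in the Rab7b values was not tested. Rab39b, a neuronal Rab whose loss in people causes intellectual disability and parkinsonism, was at 0.072. Rab29, which recruits the kinase Lrrk2 to membranes, was at -0.13, and Rab24, an autophagy Rab, also at -0.13. Rab32 and Rab38, which deliver enzymes to melanosomes, were at 0.093 and 0.041. The remaining members, Rab33b, Rab39 and Rab42, lay between -0.17 and 0.026.

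The Rabs of early endosomes spanned the narrowest range of the 7 groups. All 7 members lay between -0.093 and 0.13, with a median of 0.014, and 0 were past 0.05 without adjustment. Rab5a, which with its paralogues directs fusion of endocytic vesicles, read 11.31, 11.39 and 11.28 in the labelled KO arrays, against 11.13, 11.27 and 11.54 in the controls, at 0.014 with an interval from -0.24 to 0.27. Rab5c was at -0.0013, with an interval from -0.18 to 0.18. Rab5b, the member of smallest p, read 10.45, 10.52 and 10.28 in the labelled KO arrays, against 10.22, 10.31 and 10.34 in the controls, at 0.13 ± 0.093 (SE), and its other probe set was at 0.12. Its difference was 0.075 when labelled KO array 2 was left out and 0.20 when array 3 of that group was. Rab21, which sorts integrins after uptake, Rab31, Rab20 and Rab22a were at 0.13, 0.11, 0.0018 and -0.093.

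In the recycling endosome group the median was -0.11, and none was past 0.05 without adjustment. Of its 8 members 7 were below 0, where 10504 of all 19938 genes were below 0. Rab4a, which returns receptors quickly to the surface, was the exception, at 9.34, 9.53 and 9.01 in the labelled KO arrays, against 9.00, 8.97 and 9.10 in the controls. Labelled KO array 3 lay among the controls, so that the difference of 0.27 ± 0.13 (SE; adjusted p = 0.394) was 0.41 without that array and 0.15 when labelled KO array 2 was left out instead. Its paralogue Rab4b was at -0.10. Rab11a, the Rab of slow recycling that carries AMPA receptors into dendritic spines, read 10.55, 10.44 and 10.15 in the labelled KO arrays, against 10.44, 10.55 and 10.55 in the controls, at -0.13 with an interval from -0.39 to 0.12. Without labelled KO array 3 it was at -0.019. Rab11b was at -0.11, and another probe set listed under the same gene at -0.092. Rab14, which works between Golgi and endosomes, read below all controls by a small amount, at 10.99, 11.08 and 11.11 in the labelled KO arrays, against 11.16, 11.16 and 11.22 in the controls, a difference of -0.12 ± 0.081 (SE; adjusted p = 0.559). Rab15, Rab35 and the epithelial Rab25 were at -0.11, -0.048 and -0.042.

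Rabs that carry cargo from the Golgi to the surface and the primary cilium numbered 9, with a median change of 0.026 and 0 past 0.05 without adjustment. Rab8a, a substrate of Lrrk2, read 9.53, 9.65 and 9.62 in the labelled KO arrays, against 9.67, 9.67 and 9.72 in the controls. The groups did not overlap, but the difference was -0.085 ± 0.080 (SE), with an interval from -0.27 to 0.097, and it was -0.051 without labelled KO array 1. Rab10, another Lrrk2 substrate and the Rab of regulated glucose transporter delivery, read 11.22, 11.16 and 11.52 in the labelled KO arrays, against 11.16, 11.36 and 11.27 in the controls. Its difference of 0.037 was -0.075 without labelled KO array 3. Rab28, a Rab of cilia and photoreceptors, read 9.24, 9.39 and 9.22 in the labelled KO arrays, against 9.39, 9.50 and 9.48 in the controls, at -0.17 ± 0.088 (SE; adjusted p = 0.421). Rab34, needed to build cilia, and Rab23, which restrains Hedgehog signalling, were at 0.22 and 0.20, each with overlapping groups. Rab12, Rab8b, Rab17 and Rab13 lay between -0.042 and 0.13.

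Of 12 measured Rabs of the endoplasmic reticulum and Golgi, 1 was past 0.05 without adjustment (8.33%, where all genes gave 14.4%). The median was -0.044. Rab30, a Golgi Rab, read 8.91, 9.00 and 8.93 in the labelled KO arrays, against 8.75, 8.70 and 8.71 in the controls. The arrays of each group lay close together, so that a difference of 0.23 ± 0.079 (SE), 1.17-fold, separated them, with an adjusted p of 0.234. Rab43 also lay above all controls, by 0.16, and Rab19 below them, by -0.18, at adjusted p of 0.443 and 0.441. The Rabs of the basic secretory pathway were at -0.16 for Rab1a and -0.076 for Rab1b, which act between endoplasmic reticulum and Golgi, and -0.087 for Rab2a and 0.0029 for Rab2b, which keep the Golgi in order. The other probe set of Rab2a was at -0.025, and without control arrays 1, 2 and 3 in turn the Rab2a difference was -0.18, -0.050 and -0.027. Rab6a and its brain-enriched paralogue Rab6b, which act within and from the Golgi, were at -0.078 and -0.026. Rab18, of endoplasmic reticulum and lipid droplets, was at 0.17, Rab33a at 0.15 and Rab36 at -0.061.

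The remaining Rabs are less studied. Rab40b, which recruits a ubiquitin ligase through a SOCS box, read 8.39, 8.69 and 8.18 in the labelled KO arrays, against 8.71, 8.71 and 8.70 in the controls. The controls were nearly alike while the labelled KO arrays were spread, at 8.42 ± 0.26 in labelled KO arrays and 8.71 ± 0.00576 in controls (SD, n = 3 each). The difference of -0.29 ± 0.13 (SE; adjusted p = 0.345) was -0.17 without labelled KO array 3 and -0.42 with that array kept and labelled KO array 2 left out. Its paralogue Rab40c was at 0.12 and the large atypical Rab44 at 0.15.

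The array farthest from a gene's mean over all 6 was labelled KO array 3 for 18 of the 59 Rab genes, labelled KO array 2 for 15 and labelled KO array 1 for 6, against 7, 3 and 10 for control arrays 1, 2 and 3. The median deviation of the 59 genes from their control mean was between -0.030 and -0.0042 in the labelled KO arrays and between -0.055 and 0.035 in the control arrays. The pooled SD of these array medians within groups was 0.034, and the 2 medians farther than that from 0 were those of control array 1, at -0.055, and control array 3, at 0.035.

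**Figure D3:**
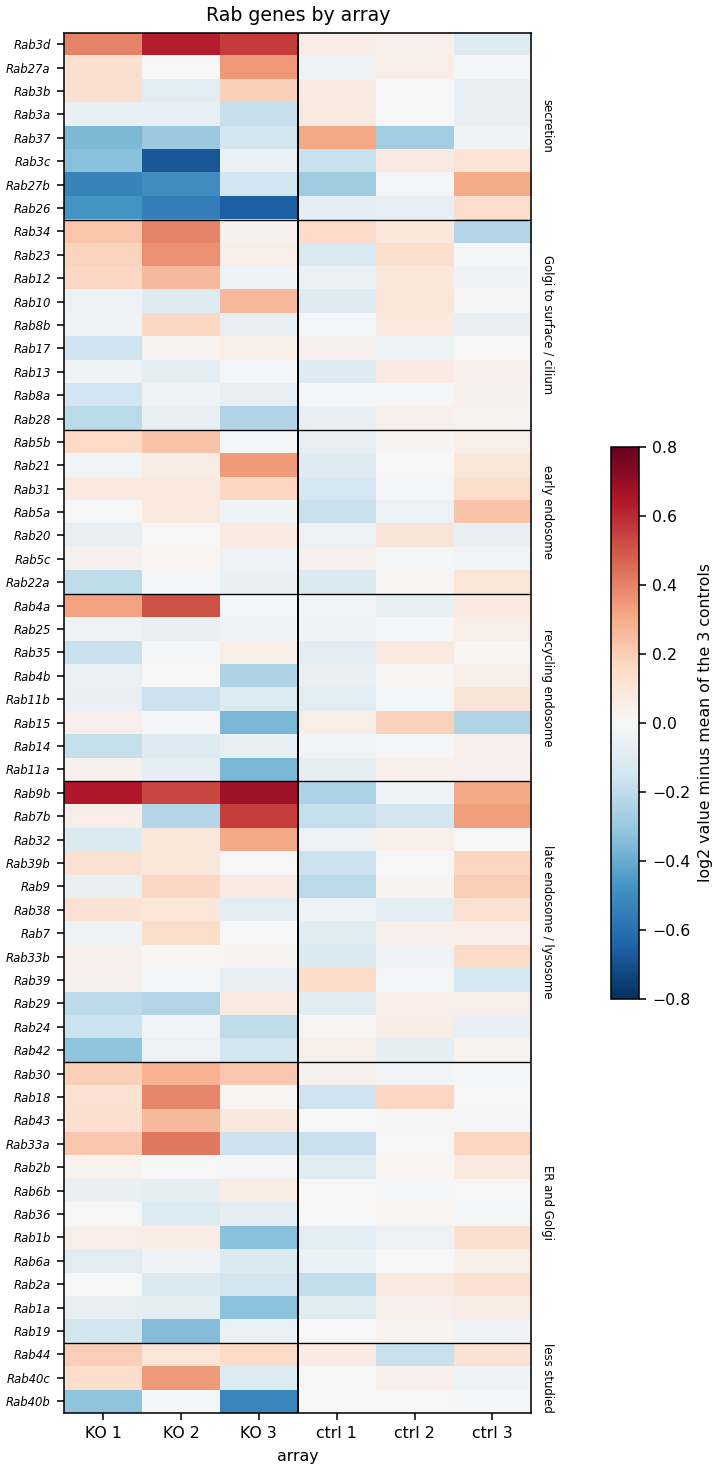
Log2 value minus the mean of the 3 controls for the 59 Rab genes (rows, by membrane step) in each array (columns, labelled KO 1 to 3 left of the line and controls 1 to 3 right of it); the color scale runs from -0.8 to 0.8. Rab3d and Rab9b are red and Rab26 blue in all 3 labelled KO arrays, and for many other genes a single array stands out.

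The proteins that load, unload and read Rabs were listed separately, 140 genes of which 131 were measured. Of these, limma called 1 at an adjusted p under 0.05 (0.763%, where it called 0.281% of all genes), and 24 were past 0.05 without adjustment (18.3%, where all genes gave 14.4%), 8 higher and 16 lower.

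Among the 42 measured of 45 effectors, 13 were above 0 and 29 below, where 47.3% of all genes were above 0. The median was -0.054. Past 0.05 without adjustment 2 were higher and 7 lower, 21.4% of the list, where all genes gave 14.4%. Rph3a, rabphilin, which binds Rab3 and Rab27 on vesicles, fell: it read 10.41, 10.13 and 10.20 in the labelled KO arrays, against 10.96, 10.88 and 10.98 in the controls, at -0.70 ± 0.097 (SE; adjusted p = 0.0358). That call was kept without labelled KO array 3 (adjusted p = 0.0420), where limma called 129 of all genes. It was lost when any other array was left out, where limma called 0 of all genes. The adjusted p of Rph3a was then 0.0618 and 0.111 without labelled KO arrays 1 and 2, and 0.167, 0.137 and 0.124 without control arrays 1, 2 and 3. Exph5, a Rab27 effector also called Slac2-b, read 8.00, 8.32 and 7.99 in the labelled KO arrays, against 8.74, 9.04 and 8.71 in the controls. The groups were apart, at -0.73 ± 0.13 (SE), with an adjusted p of 0.0614. Rims1, an active zone scaffold that binds Rab3, read 10.92, 10.57 and 11.05 in the labelled KO arrays, against 11.28, 11.35 and 11.22 in the controls, at -0.44 ± 0.13 (SE; adjusted p = 0.172). Its relatives Rims2, Rims3 and Rims4 were at -0.041, 0.14 and 0.028. Lrrk2, the kinase that phosphorylates Rab8a and Rab10, was at -0.44 ± 0.15 (SE; adjusted p = 0.236), read from the brighter of 2 probe sets. Golga2, the Golgi protein GM130, which binds Rab1, was at 0.28 ± 0.092 (SE; adjusted p = 0.215).

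Of the activators, 36 of 38 were measured and 22 were above 0, where 47.3% of all genes were. Past 0.05 without adjustment 4 were higher and 4 lower, 22.2% of the list, where all genes gave 14.4%. None was past the adjusted threshold. Dennd4a and Dennd4c, exchange factors of Rab10, were at 0.35 ± 0.13 and 0.43 ± 0.13 (SE), with all labelled KO arrays above all controls. The same separation was seen for the DENN domain genes Sbf1, at 0.29, and Sbf2, at 0.27. Dennd4a was at 0.22 without labelled KO array 3. It was read from the brightest of 9 probe sets under its name, and the others are not given here. Rin1, an exchange factor of Rab5 in forebrain neurons, was below all controls, at -0.33 ± 0.10 (SE; adjusted p = 0.212).

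All 40 GAPs on the list were measured, with a median change of -0.040 and 0 past the adjusted threshold. Past 0.05 without adjustment 2 were higher and 3 lower, 12.5% of the list, where all genes gave 14.4%. Sgsm3, a TBC domain protein, was at -0.31 ± 0.080 (SE; adjusted p = 0.134), and its relative Sgsm1 at -0.23. Tbc1d17 and Tbc1d15, a GAP of Rab7, were at 0.31 and 0.35, with Tbc1d15 at 0.23 when labelled KO array 2 was left out, and Tbc1d4, which holds back glucose transporter delivery through Rab10, was at -0.27 with overlapping groups.

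Of 7 genes of prenylation and extraction 6 were measured, and none passed. Rabggta, the alpha subunit of the enzyme that prenylates Rabs, was at -0.26 ± 0.096 (SE; adjusted p = 0.269) and its beta subunit Rabggtb at 0.20 ± 0.11 (SE; adjusted p = 0.485), or 0.11 without control array 1. Chm, the escort protein that presents Rabs to this enzyme, was at -0.24, which leaving out 1 array moved between -0.080 (labelled KO array 2) and -0.45 (array 3 of that group), with -0.37 and -0.14 when control arrays 1 and 3 were left out. Gdi2, which extracts GDP-bound Rabs from membranes, was at -0.083. Of the 7 measured of 10 related GTPases that the naming rule leaves out, Ift22, also called Rabl5 and part of the ciliary transport complex, was lowest, at -0.36 ± 0.098 (SE; adjusted p = 0.149). Rabl2, Rabl6 and Rasef were at -0.23, -0.18 and -0.099, and Ift27 at 0.084.

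**Figure D4:**
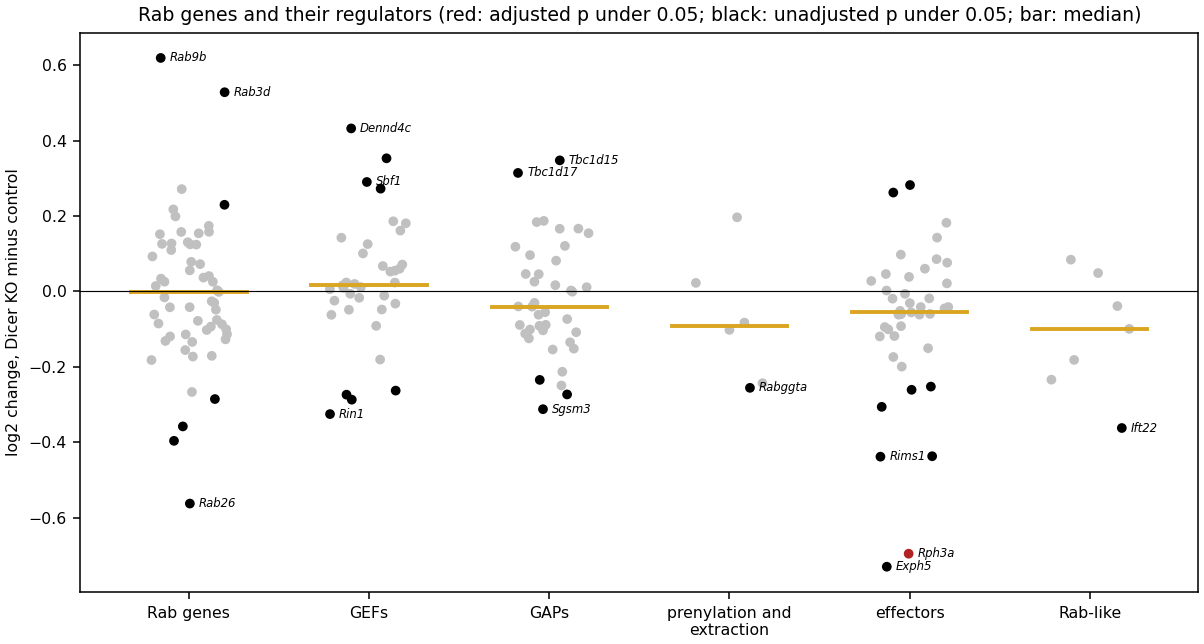
Log2 change (labelled Dicer KO minus control, y axis) of the 59 Rab genes and of their regulators by list, 1 point per gene, with the median of each list as a bar; red marks an adjusted p under 0.05, black an unadjusted p under 0.05. Rph3a, at -0.70 among the effectors, is the 1 red point.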

How the data were processed

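Each animal gave 200 ng of cortical total RNA, which an Affymetrix whole-transcript kit labelled for 1 array, per the labels' protocols. The deposited values are log2 expression per probe set (35557 rows). They came from RMA, per the submitters' processing notes, which also name limma and give no version. The number of arrays limits the precision, and no detection call was used. The 21789 rows with 1 gene symbol gave 19938 genes after renaming through GRCm38.p6 gene identifiers and keeping the probe set of highest mean. Cross-hybridisation between close Rab paralogues was not examined. Arrays were grouped by title. Differences were fitted with limma 3.58.1 in R 4.3.3 (lmFit, eBayes, group as the 1 term), with Benjamini-Hochberg adjustment over all genes at 0.05, two-sided, and tested on simulated data. An exact permutation test of 3 against 3 cannot go below 0.1. Any 2 arrays differed in at least 35523 rows. The labels call the arrays biological replicates.

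Members and lists were chosen with earlier results of these data known. Named genes are all Rab genes, with array values for those past 0.05 without adjustment, the smallest p per membrane step and 7 well-known members, and up to 5 genes per regulator list. Csf1r, Rab7b, Rab14 and Rab37 (array values), the Rims relatives, and the excitatory neuron and astrocyte markers given singly, were added after their values were seen. The alternatives were a block for the array number, fits without each array, centring on array medians, quantile normalization once more, a filter on dim genes, mean probe sets, a test of every row, a trended robust prior, a threshold of 0.1, sex as a covariate, updated symbols and, added after the data were seen, 2 arrays left out together. Some listed genes were not analysed here. Coordinates are not reported.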

Additional observations from a re-analysis of the deposited data

How the results depend on the processing

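The count of Rab genes past the threshold was 0 in the fit reported and 0 with any single array left out. Without labelled KO array 3 limma called 129 of all genes. Without any other single array it called 0 of all genes, so the 0 is not particular to the Rab genes there. The Rab count was 1 of 43 (Rab26) when dimmer genes were left out, where limma called 178 of 9969 genes. At an adjusted p of 0.1 it was 3 (Rab26, Rab3d and Rab9b), where limma called 320 of 19938 genes. The count past 0.05 without adjustment, 7, lay between 4 and 13 with 1 array left out, the highest without labelled KO array 3 (where all genes gave 16.9%). The low of 4 came without labelled KO array 1, control array 2 or control array 3. There 2207, 2500 and 2532 of 19938 genes were past 0.05 without adjustment, in that order. With dimmer genes left out the count was 4 of 43 Rab genes measured, where 2125 of 9969 genes were past 0.05. When every row was tested it was 4 of 59, where 3725 of 35557 rows were past 0.05. The count of genes whose groups do not overlap, 9, lay between 13 and 22 with 1 array left out, where fewer arrays have to be apart, and was 33 without labelled KO array 3 and control array 1 together. The share of all genes that do not overlap was not counted with arrays left out. The median change lay between -0.031 and 0.0033 with 1 array left out and was -0.051 without those 2 arrays. The count of called regulators, 1, was 2 with dimmer genes left out (178 of 9969 genes called) and 2 at 0.1 (320 of 19938 called). It was 0 with every row tested and 0 with sex in the model, settings in which limma called 0 of all rows and 0 of all genes. Without those 2 arrays it was 0, where 12 of all genes were called. With 1 array left out the count was 1 without labelled KO array 3 and 0 without any other array. With the array number as a block it was 2 (Rph3a and Exph5), and limma called 215 of all genes, against 56 without the block. Rab genes past the threshold stayed at 0 there, with 9 past 0.05 without adjustment, where all genes gave 19.2%. Arrays of the same number had deviations correlated at 0.089, 0.17 and 0.29 across genes. Arrays of different number lay between -0.23 and 0.094, the highest for control array 1 with labelled KO array 2, near its 0.089 with labelled KO array 1. These values do not settle whether the numbers mark pairs. The titles name no pairs, and the fit reported holds no block. Among single genes near 0 signs turned: Rab5a lay between -0.076 and 0.13, Rab7 between -0.021 and 0.072 and Rab10 between -0.075 and 0.11 with 1 array left out, Rab10 was at -0.022 with sex in the model, and without labelled KO array 3 and control array 1 Rab5a was at -0.051 and Rab10 at -0.13. Where the setting itself does not show it, the cause was not tested. With 1 array left out in turn, 42 of the 59 Rab genes kept their sign and 17 did not, and among the 131 regulators 86 kept it and 45 did not; 98 of those 131 moved by over 1.5 times in at least 1 case. Of the Rab genes followed through all alternatives, Rab26, Rab3d, Rab9b, Rab30, Rab27b, Rab3c, Rab40b, Rab4a, Rab28, Rab5b, Rab3a, Rab11a and Rab8a kept their sign wherever measured. Signal over background is unknown.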
